A study of Drosophila melanogaster with 4 samples.

Results

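In ovaries of Drosophila melanogaster females with the snf148 allele, 56 protein-coding autosomal genes stood at 4-fold or more below their wild-type level, out of 1283 genes in the 2 deposited tables of differing genes. The members were chosen by the deposited means: at least 5 FPKM in wild type (fragments scaled to gene length and to sequencing depth) and a wild-type mean at least 4 times that of snf148. Rows on chromosomes X and 4, noncoding RNAs and a set of gene families fixed by name were left out. Among them are the IM peptides, the chorion genes beginning with Cp1, metallothioneins, actins, cuticular proteins and larval serum proteins, and 16 autosomal rows that met both limits fell to these names. Because the levels chose the members, their levels and ratios are given as a description, with no test.

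The study set RNA of y w snf148 v females against that of y w females, with 2 libraries of each genotype. Mutant ovaries came from adults of 3 days and wild-type ovaries from virgins of 0 to 24 hours. Genotype, the v allele and age therefore cannot be told apart, and mating status may differ too. The y and w alleles are shared by both groups. The product of snf is part of the spliceosome and is needed for the female splice form of Sex-lethal, and germ cells of snf148 females form tumours in place of egg chambers.

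Many members have roles that are best known from tissues outside the ovary. The fat body and blood cells secrete antimicrobial peptides under the Toll and Imd pathways, both started by recognition of microbes. The epidermis builds cuticle from chitin and hardens and colours it with catecholamines around the time of eclosion. Enzymes for sugars, fats and foreign compounds are shared by gut, fat body and renal tubule. An ovary taken by dissection is a bulk sample, in which fewer cells of a type and less RNA per cell cannot be told apart.

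Markers of several cell types were in the tables, and their part in the results below was not tested. Of 7 germline markers, osk, orb, aret and grk were listed, all 4 lower. Their summed level was 591 FPKM in snf148 and 1779 FPKM in wild type. Germline genes outside this panel went both ways. Higher were bgcn, at 21.1 against 1.78 FPKM, and ord, at 26.5 against 1.72 FPKM, while mtrm was lower at 76.1 against 161 FPKM. Of 5 follicle cell markers, 4 were listed, all higher, at 1568 against 256 FPKM. Most of that is Yp1, at 1173 against 131 FPKM. The eggshell and vitelline membrane list, mostly but not wholly of genes of follicle cells, went both ways. It had 5 genes higher and 8 lower, the latter including Cp15 at 67.2 against 578 FPKM. Of 5 muscle markers 2 were listed, both lower, at 67.1 against 139.9 FPKM. Most of that is Act87E, at 66.1 against 124.5 FPKM. The longer muscle list had 2 genes higher and 4 lower, with Argk, arginine kinase, higher at 438 against 223 FPKM. For cuticle and trachea 2 of 4 markers were listed, both lower, at 4.16 against 37.0 FPKM. Nearly all of that is ple, at 4.16 against 36.7 FPKM, since Edg91 stood at 0 against 0.226 FPKM. The longer cuticle list had 10 genes higher and 8 lower. Of 4 fat body markers, Rfabg was higher and Lsp1gamma lower, at 98.9 against 166 FPKM together. Of 4 gut markers, Jon65Aiv was listed, at 0.773 against 4.25 FPKM. Of 4 haemocyte markers, PPO1 and PPO2 were listed under their older names proPO-A1 and proPO45. Both were higher, at 17.2 against 2.37 and 14.7 against 2.11 FPKM. The other haemocyte markers and the 3 neuron markers were not found under the names searched, which says nothing of their levels. On the longer list of blood cell and melanisation genes, which lacked proPO45, 4 were in the tables, all higher. Among them were the peroxidasin gene Pxn at 94.8 against 24.6 FPKM and again the prophenoloxidase gene proPO-A1.

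Each level below is the authors' mean for a genotype, snf148 first and wild type second, with no replicate error, and the depth behind it is unknown. In the tables, 618 of 1283 genes were lower in snf148, or 48.2%, and 51.8% were higher. Of the 1227 listed genes that are no members, 45.8% were lower. Those at least 4-fold lower made up 9.98%, and those at least 4-fold lower with at least 5 FPKM in wild type, on any chromosome and of any name, made up 6.08%. Among the 1047 rows not on X or 4, 51.5% were lower and 6.88% met both limits. The rule used the same contrast, so nothing is read from these shares.

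Over the 56 members the wild-type mean ran from 5.07 to 963 FPKM, with a median of 17.7 FPKM, and the snf148 mean from 0.184 to 229 FPKM, with a median of 2.80 FPKM. No member was listed at 0 in snf148. The ratio of wild type to snf148 ran from 4.01 to 48.8, with a median of 7.14, which is -2.84 as log2 of snf148 over wild type. It was at least 8 for 21 members and at least 16 for 6. In snf148, 41 members were under 5 FPKM and 10 of these under 1 FPKM.

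**Figure D1:**
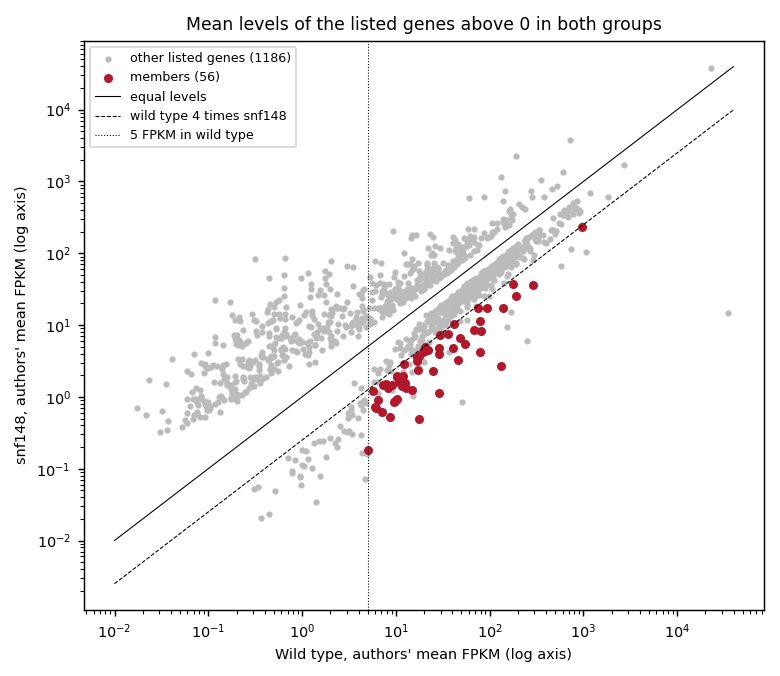
Authors' mean FPKM of each gene listed above 0 in both groups, wild type on the horizontal and snf148 on the vertical axis, both logarithmic; red points are the 56 members and grey points the other listed genes. The members lie on or below the line at which wild type is 4 times snf148 and to the right of 5 FPKM, and grey points in that area are rows left out by chromosome or name.

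The median ratio did not rise or fall steadily with the level. The 13 members of at least 50 FPKM in wild type had a median ratio of 7.97, the 30 members between 10 and 50 FPKM one of 6.16, and the 13 members under 10 FPKM one of 8.41. In the authors' deposited table, P was smallest for many members: 27 carried 5e-05, the lowest given for any gene, and the adjusted P value of the members ran from 0.00126 to 0.0444.

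The limits of the rule cut through a continuous range. Just inside the ratio limit stood CG10621 at a ratio of 4.01, CG31248 and CG10513 at 4.09 each. Just outside it stood Elp2 at 3.97, Cyp6a23 at 3.96 and CG15293 at 3.92. At the level limit, CG14565, obst-B and CG33458 were inside with 5.07, 5.76 and 6.04 FPKM in wild type. CG1850, fln and Osi15 were outside with 4.89, 4.75 and 4.65 FPKM, at ratios of 30.9, 5.80 and 63.9.

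**Figure D2:**
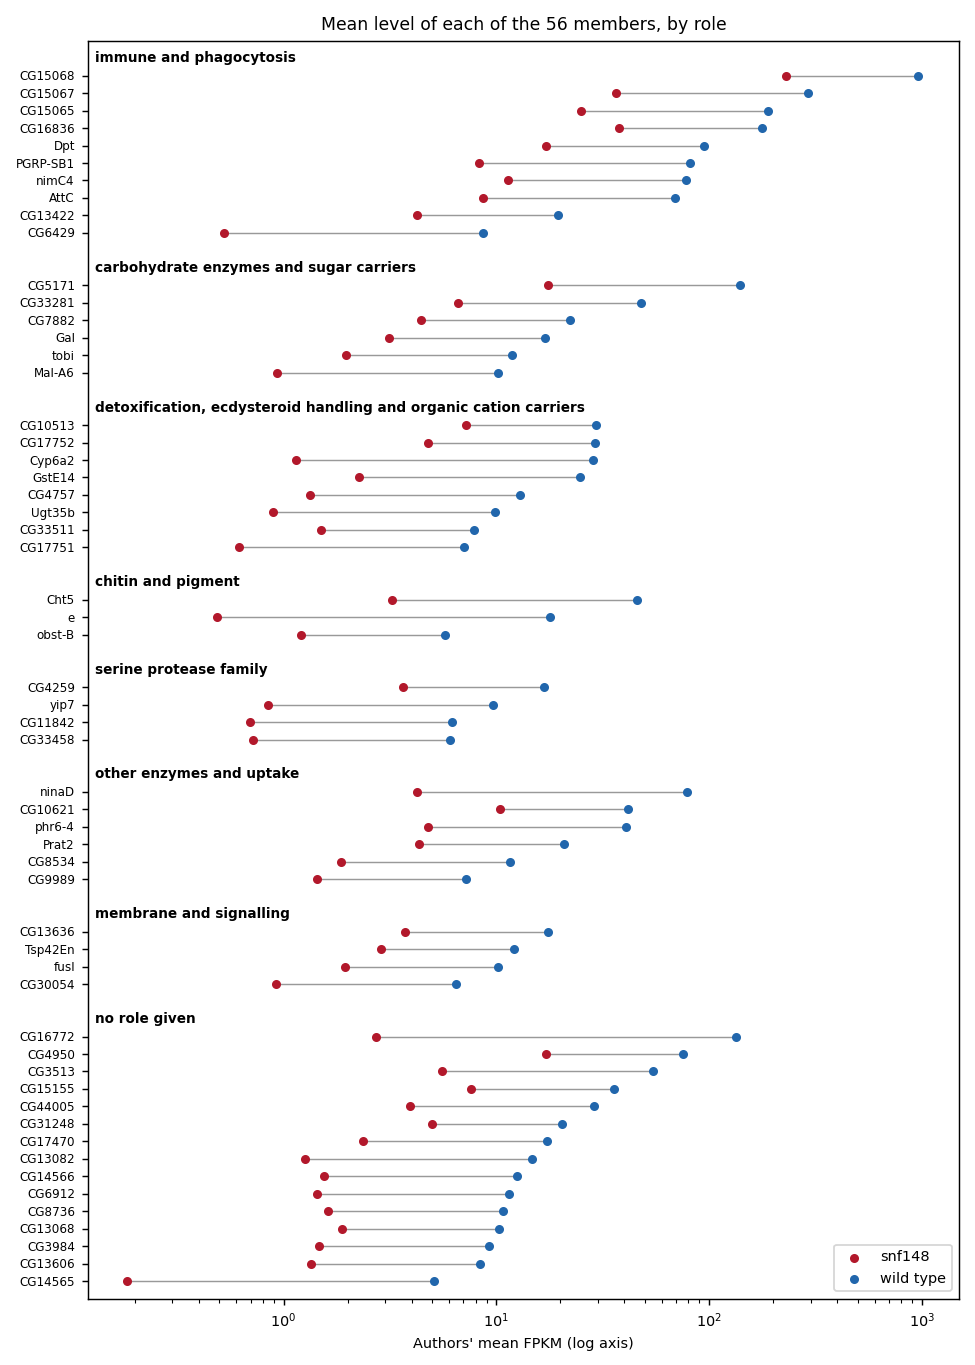
Authors' mean FPKM of each of the 56 members in snf148 (red) and wild type (blue) on a logarithmic axis, one row per gene, grouped by role and joined by a line; no error is available. Immune genes hold the 4 highest wild-type levels, and the longest lines belong to CG16772, e and CG14565.

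A group of 10 members with a role in immunity or in the clearance of dead cells was the most abundant group, with a median of 87.6 FPKM in wild type and 14.3 FPKM in snf148. The 4 members with the highest wild-type level of all were Bomanins, short secreted peptides made under Toll signalling that protect flies against fungi and Gram-positive bacteria. CG15068, now BomS6, stood at 229 against 963 FPKM, a 4.20-fold lower level in snf148. CG15067, now BomBc2, stood at 36.6 against 292 FPKM. CG15065, now BomS5, stood at 25.1 against 189 FPKM, and CG16836, now BomT2, at 37.5 against 177 FPKM. By these means CG16836 stood above CG15065 in snf148 and below it in wild type. Without replicate error this change of order was not tested.

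The 4 Bomanin members lie together on 2R, between 14272417 and 14278114 in the tables' coordinates, whose build is not named. Their neighbours IM23, IM1, IM2 and IM3 are Bomanins too and met both limits but were left out by name. The 8 genes start within 7638 bp of each other, and each was lower in snf148. Their ratios ran from 4.20 to 10.99 with a median of 7.33. Summed over the 8 genes the level was 563 FPKM in snf148 and 3608 FPKM in wild type. IM3 was the most abundant of them in wild type, at 103 against 1076 FPKM, whereas CG15068 was the most abundant in snf148. The loci of the 4 members are 268 to 677 bp long, and their coding sequences in the release 6 annotation hold 40 to 154 codons. FPKM of genes this short depends on how fragment length is handled, which is not given in the sources used here.

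**Figure D3:**
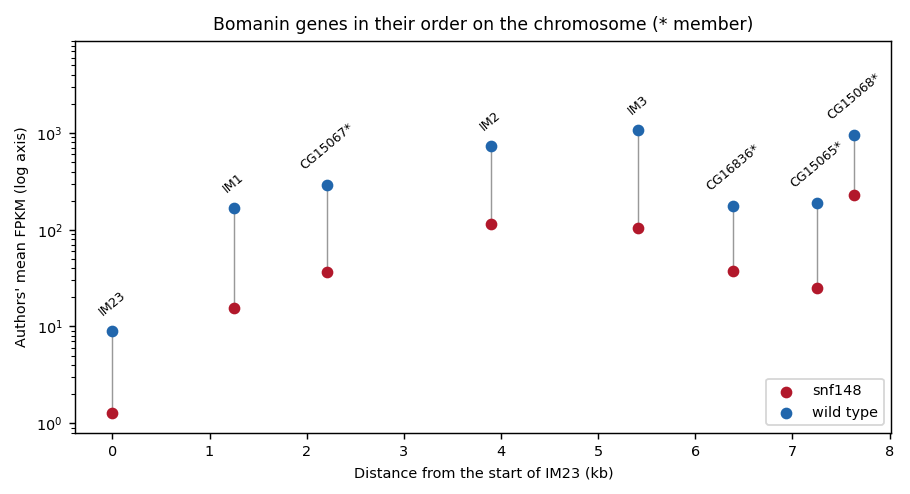
Authors' mean FPKM (logarithmic axis) of 8 Bomanin genes in snf148 (red) and wild type (blue) against the distance of each start from that of IM23 in kb; an asterisk marks the 4 members, and the others were left out of the set by name. In every gene the blue point is above the red one, and the vertical gap is smallest for CG15068.

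The other immune members include effector genes of the Imd pathway. Dpt, which RefSeq names DptA, encodes the antibacterial peptide diptericin and stood at 17.2 against 94.1 FPKM. Its neighbour DptB, which is no member, stood at 25.9 against 73.3 FPKM. The order of the pair thus differed between the means, which was not tested. AttC, an attacin directed at Gram-negative bacteria, stood at 8.63 against 68.9 FPKM. PGRP-SB1, a secreted peptidoglycan-cleaving enzyme, stood at 8.25 against 81.0 FPKM, a 9.82-fold lower level in snf148. CG13422, now GNBP-like3, belongs to the family of glucan-binding proteins and stood at 4.22 against 19.5 FPKM. CG6429 is of the invertebrate lysozyme family, and its 16.4-fold lower level, 0.526 against 8.64 FPKM, was the largest ratio of the immune members. The gene nimC4, also called simu, encodes a receptor with which phagocytes and glia take up dying cells, and stood at 11.3 against 78.0 FPKM.

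On the antimicrobial and immune list, which was built by gene name, 16 genes were in the tables, 4 higher and 12 lower. Without the 3 members among them, which the rule chose for being lower, 9 of 13 were lower, or 69.2%, beside 45.8% of all listed non-members. PGRP-SB1, AttC and Dpt are those members, and 5 of the 9 are IM genes that met both limits but were left out by name. The limits fixed the direction of these 5 as well, so nothing is read from the share. Apart from them, Drs, IM4, Tep2 and DptB were lower, and LysX, TotM, AttA and Tep4 higher. Of the non-members, IM3 and IM2 had the highest level, with IM2 at 114 against 733 FPKM. Tep4, a thioester-containing protein, was higher at 167 against 40.4 FPKM, and so was AttA, another attacin, at 26.9 against 4.00004 FPKM. AttA and AttC thus stood in opposite directions within a single family, and reads of AttA can be shared with a near-identical copy. The deposited locus of AttC is 5.88 times as long as its RefSeq gene, and whether its level covers more than AttC was not tested.

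Sugars are the substrate of 6 members, with wild-type levels of 10.2 to 140 FPKM and ratios of 5.005 to 10.9. CG5171, a trehalose phosphatase that completes the synthesis of the blood sugar trehalose, was the most abundant at 17.4 against 139.5 FPKM. A pair of glycosidases of the maltase family was among them: Mal-A6 stood at 0.936 against 10.2 FPKM, and tobi, known as a target of insulin-producing brain cells, at 1.97 against 11.9 FPKM. Gal, a beta-galactosidase, stood at 3.13 against 16.9 FPKM. CG33281 and CG7882, sugar transporters of the major facilitator family, stood at 6.64 against 47.8 and 4.44 against 22.2 FPKM. The group therefore covers cleavage, transport and synthesis of sugars rather than a single pathway step.

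Most genes of the carbohydrate list outside the set were lower as well. The carbohydrate list had 10 listed genes, of which 3 are members. Of the other 7 genes 6 were lower, or 85.7%, beside 45.8% of all listed non-members. The list was chosen with earlier results of these data known, so nothing is read from this share. GlyP, glycogen phosphorylase, stood at 109 against 184 FPKM and Gpdh at 72.4 against 159 FPKM. Tps1, which acts one step before CG5171 in trehalose synthesis, stood at 45.2 against 89.2 FPKM, a 1.97-fold lower level, while that of CG5171 was 7.998-fold lower. The higher gene was ImpL3, lactate dehydrogenase, at 27.5 against 7.11 FPKM.

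Foreign compounds, steroids or organic cations are handled by 8 members. Cyp6a2, a cytochrome P450 known from insecticide resistance, stood at 1.15 against 28.5 FPKM, a 24.9-fold lower level in snf148. GstE14, also called noppera-bo, is needed for ecdysteroid synthesis in the prothoracic gland and is used in the ovary, and it stood at 2.27 against 24.9 FPKM. Ugt35b, a UDP-glycosyltransferase, stood at 0.889 against 9.91 FPKM, and the nearby carboxylesterase gene CG4757 at 1.33 against 12.9 FPKM. Cyp6a2, Ugt35b and GstE14 were thus each more than 10-fold lower by the deposited means. With 1 FPKM added to both means, their log2 ratios were -3.78, -2.53 and -2.98. The deposited locus of Cyp6a2 is 22.5 times as long as its RefSeq gene. Among the 13 other listed P450 genes, 9 were higher and 4 lower, or 30.8% lower beside 45.8% of all listed non-members. Cyp6a19, the lower one with the highest level, stood at 34.7 against 73.0 FPKM, and Cyp4g1, the most abundant of the listed P450 genes, at 215 against 121 FPKM. Of the 3 listed glutathione S-transferases, GstE14 and GstT3 were lower and GstE5 higher.

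CG17751 and CG17752 encode carriers of the organic cation transporter family and lie side by side on 3R. The first stood at 0.615 against 7.09 FPKM, and the second at 4.78 against 29.2 FPKM. The ratio of the less abundant gene was the larger, 11.5 against 6.10. The listed gene CG6231, which starts 5799 bp from CG17752, went the other way, at 71.2 against 12.7 FPKM.

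The members CG10513 and CG33511 belong to a family of predicted ecdysteroid kinases, enzymes that in other insects store ecdysteroids as phosphates. CG10513 stood at 7.19 against 29.5 FPKM and CG33511 at 1.5003 against 7.83 FPKM. RefSeq gives a family number to 51 genes, of which 7 were in the tables. Apart from the 2 members, all 5 were lower, beside 45.8% of all listed non-members. The non-members stood at ratios of 2.32 to 6.12, with CG10514 the most abundant at 21.5 against 50.01 FPKM and CG31380 the one with the largest ratio, 0.552 against 3.38 FPKM. The family was looked up after the values of its members were seen, and several of its genes are neighbours on 3R.

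Another 3 members belong to chitin turnover and to colouring of the cuticle. The gene e (ebony) encodes the enzyme that joins beta-alanine to dopamine to give the precursor of light, hard cuticle, and it stood at 0.487 against 17.8 FPKM, a 36.6-fold lower level in snf148. Its locus runs from 17055561 to 17062900 on 3R. Cht5, a chitinase of the moult, stood at 3.23 against 45.8 FPKM, and obst-B, a chitin-binding protein of the cuticle, at 1.21 against 5.76 FPKM. Other listed genes of cuticle catecholamines and chitin turnover went both ways. On the lower side ple, tyrosine hydroxylase, which was left out by name, stood at 4.16 against 36.7 FPKM, and b (black), which makes beta-alanine, at 2.14 against 6.47 FPKM. On the higher side amd, a relative of dopa decarboxylase, stood at 6.75 against 0.529 FPKM and the chitinase gene Cht3 at 5.57 against 0.927 FPKM. The cuticle list held 18 listed genes, and of the 15 that are no members 10 were higher and 5 lower, or 33.3% lower beside 45.8% of all listed non-members. The higher genes were led by Acp65Aa, a cuticle protein of the adult, at 78.6 against 2.04 FPKM and Cpr49Ae at 66.3 against 2.99 FPKM. On this list Acp65Aa and every Cpr gene were higher, together with Osi19 and Cht3. The lower genes were e, ple, b, Cht5, obst-B, Gasp, Osi15 and Edg91. The limits fixed the direction of e, Cht5, obst-B and ple, and amd is not on the list.

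A further 4 members are serine proteases or inactive homologues, which digest food or relay signals in blood. All were weakly expressed, with wild-type levels of 6.04 to 16.8 FPKM. CG4259 stood at 3.63 against 16.8 FPKM, yip7 at 0.845 against 9.62 FPKM, CG11842 at 0.698 against 6.20 FPKM and CG33458 at 0.719 against 6.04 FPKM. Near yip7 lies Jon65Aiv and near CG11842 lies CG11841, both of the same family and both lower, at 0.773 against 4.25 and 0.660 against 4.44 FPKM, just under the level limit. Of all listed genes, 19 have a serine protease number in RefSeq. Of the 15 that are no members, 3 were lower and 12 higher, while 45.8% of all listed non-members were lower. The higher ones include dp (dumpy), a matrix protein gene matched by its number alone. They also include CG17234, CG17475 and CG17477, at only 0.515, 0.801 and 0.284 FPKM in snf148 against 0 in wild type. The activating protease of the Toll pathway, SPE, was among the lower ones at 3.92 against 14.9 FPKM, and the spermathecal protease Send1 the most abundant of the higher ones at 44.6 against 0.985 FPKM.

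The next 6 members are enzymes or uptake proteins with separate roles. The largest ratio among them was that of ninaD, a scavenger receptor for the uptake of dietary carotenoids, at 4.26 against 79.1 FPKM or 18.6-fold lower. The photolyase gene phr6-4, whose product repairs ultraviolet damage in DNA, stood at 4.75 against 40.5 FPKM. CG10621, a homocysteine methyltransferase, stood at 10.4 against 41.5 FPKM. Prat2, which opens purine synthesis, stood at 4.31 against 20.7 FPKM. The fatty acid elongase CG8534 stood at 1.86 against 11.6 FPKM, while the elongase gene eloF, 4141 bp away, was higher at 8.05 against 1.46 FPKM. CG9989, now Sid, a DNase induced by stress, stood at 1.44 against 7.22 FPKM.

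The remaining group with known roles has 4 members that act at membranes or in signalling, with ratios of 4.20 to 7.08, the narrowest range of the groups. CG13636, now sosie, encodes a transmembrane protein needed for follicle cell shape and migration and stood at 3.74 against 17.6 FPKM. The tetraspanin gene Tsp42En stood at 2.88 against 12.1 FPKM, and its relative Tsp42El, 6978 bp away, was higher at 32.4 against 9.95 FPKM. The gene fusl (fuseless), known from the presynaptic terminal, stood at 1.94 against 10.2 FPKM. CG30054, a relative of the Gq alpha subunit, stood at 0.917 against 6.497 FPKM.

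For 15 members no role is given here. CG16772 had the largest ratio of the whole set, 48.8, at 2.73 against 133 FPKM, and lies on 2L between 19962679 and 19963844. Its listed neighbour CG10680 stood at 14.4 against 41.3 FPKM. CG14565 stood at 0.184 against 5.07 FPKM, a ratio of 27.5, and CG14566, 3769 bp away, at 1.54 against 12.6 FPKM. CG4950 and CG3513 were the most abundant after CG16772, at 17.1 against 75.2 and 5.53 against 54.5 FPKM. CG13082 stood at 1.26 against 14.8 FPKM. The remaining 9 members of the group had wild-type levels between 8.34 and 35.9 FPKM and ratios between 4.09 and 8.01. CG15155 stood at 7.59 against 35.9 FPKM, CG44005 at 3.95 against 28.7 FPKM and CG31248 at 4.997 against 20.4 FPKM. Lower in level were CG17470, at 2.37 against 17.4 FPKM, and CG6912, at 1.44 against 11.5 FPKM. In the last 4 members all wild-type levels were near 10 FPKM. CG8736 stood at 1.63 against 10.7 FPKM and CG13068 at 1.88 against 10.3 FPKM. CG3984 stood at 1.47 against 9.21 FPKM and CG13606 at 1.34 against 8.34 FPKM.

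Position entered the rule directly only to leave out X and 4, and was then described. The names left out bear on it too. Chorion genes such as Cp15, with ple and Act79B, lie on 3L, the IM genes on 2R and the metallothioneins on 3R. The low count on 3L thus depends in part on the names. The arms 2L, 2R and 3R held 16 members each and 3L held 8, or 14.3%; 3L held 21.5% of the other 483 autosomal lower genes and 23.5% of the protein-coding genes on these arms in release 6. The count of near members that follows was not made for other gene sets, so nothing is read from it. In all, 16 members started within 10 kb of another member, in 7 groups. Apart from the 4 Bomanins these were the pairs CG17470 and phr6-4, CG4950 and CG13068, CG14566 and CG14565, CG4757 and Ugt35b, CG6912 and CG3984, and CG17751 and CG17752. In the release 6 gene order no other protein-coding gene starts between the members of 4 of these pairs, 1 does between CG14566 and CG14565, and 2 do between CG4757 and Ugt35b. The neighbours between the latter pair are themselves UDP-glycosyltransferase genes of the Ugt35 group.

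Not all listed neighbours went down. Of the 56 members, 34 had a listed gene that starts within 10 kb. Leaving aside members and the rows left out by name, the neighbours numbered 25, of which 12 were lower and 13 higher. Among all listed non-members 45.8% were lower. Lower neighbours included CG10680 beside CG16772 and CG6426 beside CG6429, at 13.8 against 38.2 FPKM. Higher neighbours included Esp, 7981 bp from CG13636, at 54.1 against 9.75 FPKM, and the stress peptide gene TotM, 613 bp from fusl, at 9.28 against 1.25 FPKM.

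The coding sequences of the members were shorter in the median than those of the other autosomal lower genes. All 56 could be matched to a coding sequence of the Ensembl annotation of release 6, and the median length was 325 codons, with a range of 40 to 879. The other autosomal lower genes had a median of 502.5 codons over 478 matched genes, and all protein-coding genes of these arms one of 387. No member was longer than 1000 codons, while 14.9% of the other lower genes and 10.6% of all genes were. One or 2 exons were annotated for 26 members, or 46.4%, against 27.0% of the other lower genes and 38.3% of all. The median number of exons was 3 for the members and for all genes, and 4 for the other lower genes. Autosomal genes that stood at least 4-fold higher in snf148 with at least 5 FPKM there, 144 in number, had a median of 295 codons and 1 or 2 exons in 53.5%. A median below that of all genes was thus found on both sides at this ratio. Coding sequences under 150 codons made up 12.5% of the members, 7.95% of the other lower genes and 15.0% of all. Short genes left out by name, such as metallothioneins, count among the other lower genes. No test was made over genes, which are not replicates.

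**Figure D4:**
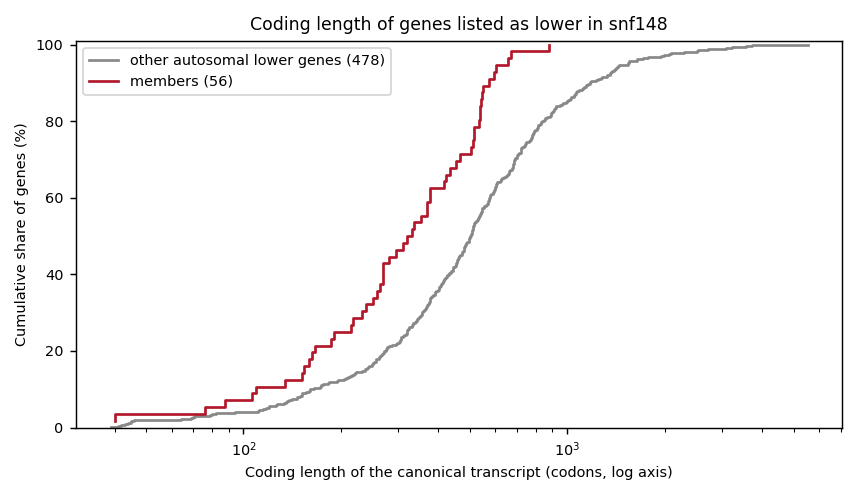
Cumulative share of genes (percent) by coding length of the canonical transcript in codons, on a logarithmic axis, for the 56 members (red) and 478 other autosomal genes listed as lower (grey). The red line reaches 50% near its median of 325 codons, and the grey line near 502.5 codons with a tail beyond 1000 codons that the members lack.

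For 6 members the deposited locus was over 2 times as long as the RefSeq gene; whether their FPKM covers more than the named gene was not tested. That of nimC4 spans 54232 bp against a gene of 1282 bp, and that of Cyp6a2 spans 39227 bp against 1743 bp. The others were AttC, CG8534, tobi and Gal, at 5.88, 3.29, 3.09 and 2.03 times the gene length. Without these 6 genes the median log2 ratio of the members was -2.86.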

How the data were processed

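RNA of dissected ovaries was sequenced as stranded total RNA libraries with paired ends, per the labels' protocols. TopHat2 2.0.9 and Cuffdiff are credited in the submitters' processing notes. The genome build and how fragments were assigned to genes are not given in these sources. Per the file headers, the authors deposited group means in FPKM, the log2 fold change (wild type over mutant), and a raw and an adjusted P value for every listed gene. No value per library was analysed here, so no SD, depth or fit of the libraries is given, and the authors' test stands alone. The genes tested by the authors beyond the 1283 listed were not analysed here, and shares are over listed genes. The largest deposited adjusted P value is 0.0497.

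Direction was taken from the means, and ratios were recomputed from them; for all 56 members log2 of the ratio was within 0.001 of the deposited log2 value. Starts were moved to count from 1. RefSeq release 6 served for names, matched for 1273 genes, and gene order, and Ensembl release 115 for coding length and exons of the canonical transcript. Python 3.11.15 and pandas 2.3.3 were used, and the selection was tested on simulated data.

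The members and gene lists were chosen with earlier results of these data known. Named with values were the 12 most abundant members, the 12 of largest ratio, members of a list or within 10 kb of another member, genes at the edge of the rule, and up to 2 list genes per direction; other members, neighbours, family relatives and list genes were named after their values were seen. Roles were assigned from general knowledge, also afterwards. Alternatives were other limits of ratio, level and adjusted P value, pseudocounts of 1 and 0.1 FPKM, and distances of 5 and 20 kb. Sequences, motifs and per-library fits were not analysed here.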

Additional observations from a re-analysis of the deposited data

How the results depend on the processing

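The number of members moved most with the limits, as follows from their construction: a ratio of at least 8 left 21 genes in place of 56, and a wild-type level of at least 1 FPKM gave 88. A ratio of at least 3 gave 81, at least 10 FPKM left 43 and a limit of 0.01 on the adjusted P value left 42, each within 1.5 times of the main count; no member shared a locus with another listed gene. The median log2 ratio stayed between -2.34, with 1 FPKM added to both means, and -2.86, without the 6 members of long loci, an alternative chosen after seeing the data. With 1 FPKM added, 42 of the 56 members were still at least 4-fold lower, and the fold of 18 single members changed by more than 1.5 times; with 0.1 FPKM added that of 1 did. Members within 10 kb of another numbered 16, 14 at 5 kb and 16 at 20 kb. The median coding length was 315 codons without the long loci and 311 at 10 FPKM or more, both chosen after seeing the data. No paired analysis was possible because only means of each genotype were analysed, and for the same reason no replicate could be left out. The depth is unknown, so how it limits the ratios of the 10 members under 1 FPKM in snf148 was not tested.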
